A study of Mus musculus with 6 samples.

Results

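The genes described here are 10 transcription factor genes of the ETS and RUNX families, taken by name as blood factors: the ETS genes *Fli1*, *Erg*, *Spi1* (written *Sfpi1* in the annotation used), *Ets1*, *Etv6*, *Elf1* and *Gabpa*, the RUNX genes *Runx1* and *Runx3*, and *Cbfb*. All 10 were present among the 12101 genes listed, and all 10 were among the 12088 genes tested. RNA was sequenced from sorted adult megakaryocyte–erythroid progenitors (MEPs), the bone marrow cells that give rise to red blood cells and to the platelet-shedding megakaryocytes. Both groups came from adult Nanog-tg mice, labelled strain CD-1, which carry a dox-responsive transactivator at the *Rosa26* locus together with a tetO-driven *Nanog* transgene at *Col1a1*. The 3 treated libraries came from mice given doxycycline (dox) in their water over 5 days, and the 3 untreated libraries from mice of the same genotype without dox. Dox acts throughout the animal in this model, so the transgene was not limited to MEPs, and no group given dox without the *Nanog* transgene was analysed here. The labels do not say that the replicates are separate animals, so p-values measure only the spread between these samples, which may be technical.

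ETS proteins share a DNA-binding domain that reads a GGAA core, and in blood different members favour different lineages. FLI1 and ERG act in stem cells and megakaryocytes, PU.1 (the product of *Spi1*) in myeloid and B cells, and GABPA in most cells. RUNX proteins bind DNA through the Runt domain and gain affinity by pairing with CBFB, which does not bind DNA itself. RUNX1 is needed for the first definitive blood stem cells and for normal megakaryocytes, and RUNX3 is best known in lymphoid cells.

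Promoter sequence is shown for *Runx3*, the only one of the 10 genes that passed the test, for *Runx1*, which shares its arrangement of motifs, and for *Erg*, which had the largest fold change of the 10. Windows run from 250 bases before to 50 bases after an annotated start, are from RefSeq on build GRCm38.p6, and read 5′ to 3′ in the direction of the gene. Of the 10 genes, 7 had a window, 12 windows in all, and none was held for *Fli1*, *Spi1* or *Ets1*. Capitals mark the RUNX letters TGTGGT or their complement ACCACA, or the GATA letters AGATAA or their complement TTATCT. The first window is chr4:135120395-135120694 on the plus strand, the second chr16:92826025-92826324 on the minus strand and the third chr16:95459299-95459598 on the minus strand.
Runx3: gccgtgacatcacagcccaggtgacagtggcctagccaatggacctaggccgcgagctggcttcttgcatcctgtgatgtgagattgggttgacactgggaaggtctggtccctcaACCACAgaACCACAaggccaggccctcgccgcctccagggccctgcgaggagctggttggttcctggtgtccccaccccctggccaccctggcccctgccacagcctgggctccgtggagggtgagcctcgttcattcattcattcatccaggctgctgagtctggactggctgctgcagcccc
Runx1: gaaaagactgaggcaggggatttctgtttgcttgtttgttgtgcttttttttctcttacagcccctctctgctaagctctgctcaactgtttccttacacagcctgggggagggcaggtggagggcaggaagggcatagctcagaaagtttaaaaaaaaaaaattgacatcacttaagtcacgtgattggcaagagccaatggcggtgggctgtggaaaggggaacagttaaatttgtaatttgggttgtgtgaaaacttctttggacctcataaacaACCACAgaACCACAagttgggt
Erg: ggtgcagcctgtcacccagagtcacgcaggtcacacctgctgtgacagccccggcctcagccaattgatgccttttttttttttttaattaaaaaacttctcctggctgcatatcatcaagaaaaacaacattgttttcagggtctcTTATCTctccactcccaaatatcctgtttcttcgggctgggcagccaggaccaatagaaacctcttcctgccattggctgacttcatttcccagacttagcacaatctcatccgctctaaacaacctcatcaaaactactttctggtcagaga

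The *Runx3* and *Runx1* windows each held the RUNX letters 2 times, and the longest run they share is the 18 bases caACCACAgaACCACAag. In *Runx3* this run began 136 bases before the annotated start, and in *Runx1* 26 bases after it. *Runx3* and *Runx1* each also had another window, at a different annotated start, which did not hold the RUNX letters. Of 32851 windows of this length, 4 held the run, those of *Runx1*, *Runx2*, *Runx3* and Gm16225. The RUNX letters alone were in 16.8% of all windows, and among the 12 windows of these genes in 2. The GATA letters were in 11.2% of all windows and in 1 of the 12, the *Erg* window printed, while the other *Erg* windows did not hold them. The ETS letters CCGGAAG or CTTCCGG were in 8.86% of all windows and in 1 of the 12, that of *Gabpa*. These matches are descriptions of sequence, and the expression values are per gene and do not say which start was used.

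The deposited values are on the log2 scale in CPM, that is reads scaled to a library size of 1000000 after normalization, with 0.5 reads added first, and the reads behind them could be recovered as whole numbers. Each library held between 11264803 and 16153600 reads on the listed genes, so that 1 read was worth between 0.0642 and 0.0910 CPM. The 10 genes lay between 6.0 and 173 CPM in single libraries, well above the 3 reads taken as the floor, which covers counting error only. *Nanog*, the induced gene, had 17062, 19609 and 15959 reads in treated replicates 1, 2 and 3 and 9, 13 and 1 in the untreated replicates. Treated replicate 3 stood apart from the other treated libraries. On the first principal component of all genes tested, which held 60.4% of the variance, treated replicates 1 and 2 were at -57.5 and -56.3, treated replicate 3 at -14.8, and the untreated libraries between 35.1 and 54.2. The fold changes of the 10 genes, the ratios and the counts over gene lists are therefore also given without that library.

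Across the 10 genes, *Runx3* was the single gene past the threshold with dox, an adjusted p under 0.05 in limma, and it fell. No member was called higher, against 4.59% of all genes tested, and 1 was called lower, against 3.18%. At an unadjusted p under 0.05 in limma the members counted 4 higher (*Fli1*, *Erg*, *Etv6*, *Cbfb*), against 15.6% of all genes, and 1 lower, against 13.6%. The same genes were those whose treated and untreated libraries did not overlap: 4 higher, against 17.7% of all genes, and 1 lower, against 18.2%. The median log2 fold change was 0.37 over the 10 genes and -0.03 over all genes tested. Without treated replicate 3 the fit called 3 members higher (*Erg*, *Etv6*, *Elf1*), against 14.9% of all genes, and 1 lower (*Runx3*), against 14.0%, and the members' median was 0.65. Leaving out any other library called between 92 and 143 of all genes tested higher and between 36 and 126 lower. With all 6 libraries these numbers were 555 and 384.

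**Figure D1:**
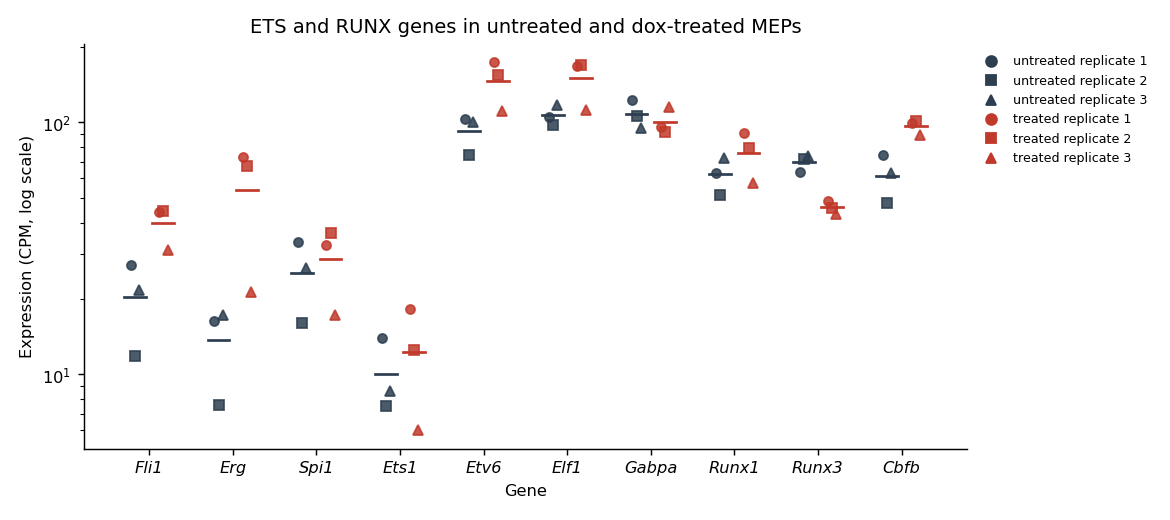
Expression of the 10 genes in CPM on a log axis, with a point for each of the 3 untreated (dark) and 3 treated (red) libraries and a bar at each group's mean. Treated replicate 3 (red triangle) lies below the other treated libraries for every gene but *Gabpa*, and *Runx3* is the gene whose treated points all lie below the untreated ones.

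The ETS genes tied to stem cells and megakaryocytes are *Fli1* and *Erg*. *Erg* (chr16:95580776-95808200, minus strand, NCBIM37) was at 72.8, 67.3 and 21.3 CPM in treated replicates 1, 2 and 3 and at 16.4, 7.57 and 17.2 CPM in untreated replicates 1, 2 and 3. The groups did not overlap, but treated replicate 3 was much nearer to the untreated libraries than to the other treated ones. The means were 53.8 ± 28.3 and 13.7 ± 5.35 CPM (SD, n = 3 each). The log2 fold change was 1.87 (SE 0.57, 95% interval 0.47 to 3.27), with an adjusted p in limma of 0.0966. Without treated replicate 3 it was 2.44, with an adjusted p in limma of 0.0198. With all 6 libraries limma also called it with array quality weights (adjusted p 0.00525), with voom weights plus the replicate block (0.0309) and with a mean-variance trend (0.0444).

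*Fli1* (chr9:32229793-32348974, minus strand), whose product activates platelet glycoprotein genes, was at 44.3, 44.6 and 31.1 CPM in the treated libraries and at 27.2, 11.9 and 21.7 CPM in the untreated ones. Untreated replicate 2 was lowest, and the groups did not overlap. The log2 fold change was 1.04 (SE 0.34, 95% interval 0.22 to 1.87) with an adjusted p in limma of 0.107, and without treated replicate 3 it was 1.22 with an adjusted p of 0.0667. The value did not pass in either fit.

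Both genes have another ETS gene as their neighbour, with no protein-coding gene between. *Ets1* lies 94.8 kb from *Fli1*, and *Ets2* lies 115 kb from *Erg*. *Ets2*, a MAP kinase-responsive ETS factor, was at 9.68, 7.41 and 8.63 CPM in the treated libraries and at 18.9, 17.8 and 18.3 CPM in the untreated ones. It fell by 1.11 on the log2 scale (SE 0.13, adjusted p in limma 0.0127), and the 2 groups were well separated. Without treated replicate 3 the value was -1.12 (adjusted p in limma 0.0126), and the call was lost without untreated replicate 1 or untreated replicate 3. The log2 ratio of *Erg* to *Ets2* within a library was between 1.30 and 3.18 in the treated libraries and between -1.24 and -0.09 in the untreated ones. The difference of the means was 2.98, or 3.56 without treated replicate 3, with a two-sided exact permutation p of 0.1, the smallest that 3 libraries against 3 allow. This ratio was chosen after the values were seen.

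Marker levels of other cells ran alongside those of *Erg* and *Fli1*. Of 10 stem cell markers, 8 were among the genes listed, and 7 of them had a higher mean in treated MEPs. In limma 0 passed, with 5 higher at an unadjusted p under 0.05 and 1 called with voom weights. Limma without treated replicate 3 called 6 of the 8 higher (*Cd34*, *Hlf*, *Hoxa9*, *Mecom*, *Meis1*, *Mllt3*). Their summed level was between 305 and 450 CPM in the treated libraries, with 305 in treated replicate 3, and between 139 and 223 CPM in the untreated ones. Among them *Cd34*, whose protein the sort selects against, was at 172, 129 and 62.8 CPM in the treated libraries and 57.7, 23.8 and 48.2 CPM in the untreated ones, an adjusted p in limma of 0.114, or 0.0347 without treated replicate 3. Of 8 endothelial markers 6 were listed, without the defining genes *Cdh5* and *Cldn5*. The sum of the 6 was between 51.2 and 142 CPM in the treated libraries and between 30.6 and 51.0 CPM in the untreated ones, and 1 of them rose, *Tek*, a receptor also found on stem cells, by 3.36 on the log2 scale (adjusted p in limma 0.0471). In the fit without treated replicate 3, *Tek*, *Esam* and *Tie1* were called, 3 of the 6, while voom weights or leaving out any other library gave 0. In bulk samples more cells of a type and more RNA per cell cannot be told apart, and the part of these cells in the values of *Erg* and *Fli1* was not tested.

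*Spi1* (chr2:90922547-90955913, plus strand), which encodes the myeloid factor PU.1, was at 32.5, 36.4 and 17.3 CPM in the treated libraries and at 33.6, 16.0 and 26.5 CPM in the untreated ones. The groups overlapped over nearly their whole range. Its log2 fold change was 0.17 (SE 0.39, 95% interval -0.77 to 1.12, adjusted p in limma 0.788), and 0.50 without treated replicate 3 (adjusted p 0.290). *Ets1* (chr9:32443806-32565405, plus strand), best known in lymphoid cells, was the lowest of the 10 genes, at 18.2, 12.5 and 6.0 CPM in treated and 14.0, 7.501 and 8.597 CPM in untreated libraries. Its log2 fold change was 0.20 (95% interval -0.91 to 1.31, adjusted p in limma 0.789), and 0.65 without treated replicate 3 (adjusted p 0.187). For both genes the sign turned when some single libraries were left out.

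*Etv6* (chr6:133985718-134220176, plus strand), which encodes a repressor of the family needed by adult stem cells, was at 173, 155 and 111 CPM in treated and 103, 74.2 and 100.03 CPM in untreated libraries. The groups did not overlap, with treated replicate 3 next to the untreated ones. In limma the log2 fold change was 0.65 (SE 0.22, 95% interval 0.12 to 1.19) with an adjusted p of 0.116. Without treated replicate 3 it was 0.84 with an adjusted p of 0.0313 in limma.

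*Elf1* (chr14:79881001-79982283, plus strand), an activator broadly active in blood cells, was at 167, 169.5 and 112 CPM in treated and 105, 97.7 and 118 CPM in untreated libraries. Treated replicate 3 lay within the range of the untreated libraries. The log2 fold change was 0.46 (SE 0.19, adjusted p in limma 0.176), and 0.66 without treated replicate 3 (adjusted p 0.0205 in limma).

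*Gabpa* (chr16:84835170-84864024, plus strand), the DNA-binding subunit of the factor GABP, was at 95.7, 91.3 and 115 CPM in treated and 123, 107 and 95.1 CPM in untreated libraries. The groups overlapped, and the log2 fold change was -0.10 (95% interval -0.47 to 0.27, adjusted p in limma 0.674), and -0.20 without treated replicate 3 (adjusted p 0.290). Exons of *Elf1* and *Wbp4*, and of *Gabpa* and *Atp5j*, overlap on opposite strands. Whether counting used strand is not given in the sources used here, so the values of *Elf1* and *Gabpa* are uncertain to that extent. *Etv6* and *Runx1* likewise share exon sequence with the unlisted transcripts Gm17089 and Gm16801.

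**Figure D2:**
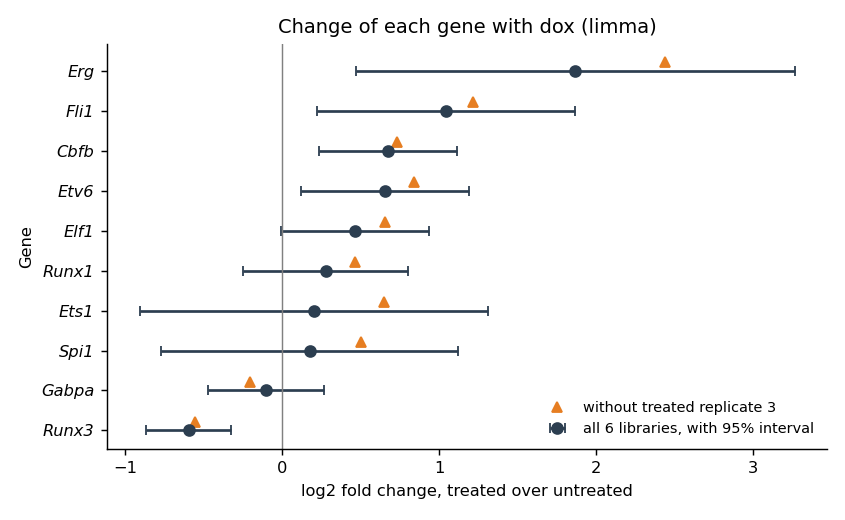
Log2 fold change of each gene, treated over untreated, from limma on 6 libraries (circles, with 95% intervals) and without treated replicate 3 (triangles, no interval drawn). *Erg* has the widest interval, 0.47 to 3.27, and *Runx3* lies at -0.60 and -0.56 in the 2 fits.

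Among the RUNX genes, *Runx3* (chr4:134676567-134733905, plus strand) was at 48.6, 45.9 and 43.5 CPM in treated and 63.6, 71.8 and 73.6 CPM in untreated libraries. The groups did not overlap, and treated replicate 3 sat with the other treated libraries. *Runx3* fell by 0.60 on the log2 scale (SE 0.11, 95% interval -0.87 to -0.33, adjusted p in limma 0.0350), from 69.7 ± 5.32 to 46.0 ± 2.58 CPM (SD, n = 3 each). Without treated replicate 3 the value was -0.56 (adjusted p 0.0244 in limma). Leaving out any other library, treated replicate 1 or 2 or untreated replicate 1, 2 or 3, gave between -0.66 and -0.56 with adjusted p in limma between 0.0759 and 0.135, so the call did not hold in those fits although the direction did.

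*Runx1* (chr16:92601712-92826311, minus strand) was at 90.6, 79.5 and 57.7 CPM in treated and 63.0, 51.5 and 72.0 CPM in untreated libraries. Treated replicate 3 lay inside the untreated range. *Runx1* had a log2 fold change of 0.28 (95% interval -0.25 to 0.80, adjusted p in limma 0.424), and 0.46 without treated replicate 3 (adjusted p 0.101). It was 0.14 without treated replicate 1 and 0.15 without untreated replicate 2. *Cbfb* (chr8:107694574-107741886, plus strand) was at 99.7, 102 and 89.4 CPM in treated and 74.0, 47.8 and 62.8 CPM in untreated libraries. Its groups did not overlap, and the log2 fold change of 0.68 (SE 0.18, 95% interval 0.23 to 1.12) had an adjusted p in limma of 0.0754, or 0.0535 without treated replicate 3. With all 6 libraries limma called *Cbfb* with array quality weights (adjusted p 0.0118), with a mean-variance trend (0.0320) and with voom weights, alone (0.0411) or plus the replicate block (0.0495).

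Per kilobase of the longest transcript, *Runx3* held most of the summed level of *Runx1*, *Runx2* and *Runx3* in untreated MEPs, and on average less in treated MEPs. Its share was 63.2% ± 5.32 (SD, n = 3) in untreated and 47.6% ± 5.81 in treated MEPs, with 43.5%, 45.0% and 54.2% in treated replicates 1, 2 and 3, and in treated replicate 1 it lay below the *Runx1* share of 44.2%. The mean share of *Runx1* was 30.5% ± 2.98 and 42.0% ± 2.53. The library values of neither share overlapped between the groups, an exact permutation p of 0.1 each, the smallest possible. The log2 ratio of *Runx1* to *Runx3*, a comparison added after the values were seen, was between 0.41 and 0.90 in treated and between -0.48 and -0.01 in untreated libraries. The means differed by 0.87, and by 1.02 without treated replicate 3. The log2 ratio of *Runx1* to *Cbfb* was -0.14, -0.35 and -0.63 in treated and -0.23, 0.11 and 0.20 in untreated libraries, a difference of -0.40 with an exact permutation p of 0.2, and of -0.27 without treated replicate 3.

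Markers of granulocytes and monocytes moved with *Runx3*, although the sort keeps lineage-negative cells without Fc gamma receptors, a gate meant to remove both these cells and mature lymphoid cells. All 12 on the list had a lower mean in treated MEPs and 10 fell, with 11 called without treated replicate 3 and between 1 and 7 without any other library, the fewest without untreated replicate 3. Their summed level was between 2490 and 5751 CPM in untreated and between 525 and 756 CPM in treated libraries. Of 18 lymphoid markers 10 were listed, without *Cd3e* and *Cd4*, summing to between 31.0 and 94.98 CPM in treated and between 53.5 and 78.3 CPM in untreated libraries. 1 of them fell, *Nkg7*, a gene also expressed in granulocyte precursors (log2 fold change -2.12, adjusted p in limma 0.0163). It was also the 1 called without treated replicate 3, and it was lost without treated replicate 1, treated replicate 2 or untreated replicate 3. Their part in the values of *Runx3* was not tested.

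The order of the 10 genes by level per kilobase differed little between neighbours. In untreated MEPs *Elf1* was highest at 25.4 ± 2.39 CPM per kb (SD, n = 3), followed by *Gabpa*, *Cbfb*, *Runx3*, *Etv6*, *Spi1*, *Runx1*, *Fli1*, *Erg* and, at 1.98 ± 0.68 CPM per kb, *Ets1*. The library values of every pair of neighbours in that order overlapped. In treated MEPs the order was *Elf1*, *Cbfb*, *Etv6*, *Gabpa*, *Erg*, *Spi1*, *Fli1*, *Runx3*, *Runx1* and *Ets1*, and the neighbours that did not overlap were *Cbfb* and *Etv6*, and *Runx1* and *Ets1*. *Erg* was at 4.10 ± 1.60 CPM per kb in untreated and 16.1 ± 8.45 CPM per kb in treated MEPs.

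Of 17 ETS genes listed, *Erg* ranked 13 by level per kilobase in untreated and 6 in treated MEPs. Its share of the summed ETS level was 2.53%, 1.36% and 2.76% in the untreated libraries and 8.51%, 8.02% and 3.31% in the treated ones. The share of *Fli1* was 3.52% ± 1.13 in untreated and 5.50% ± 0.26 in treated MEPs, while that of *Gabpa* was 11.9% ± 1.49 and 8.95% ± 2.68. *Elf2*, which is not one of the 10 genes, had the highest mean level per kilobase in both groups, but in treated replicates 1 and 2 *Elf1* was above it (shares of 15.5% and 16.0% against 14.5% and 15.1%).

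**Figure D3:**
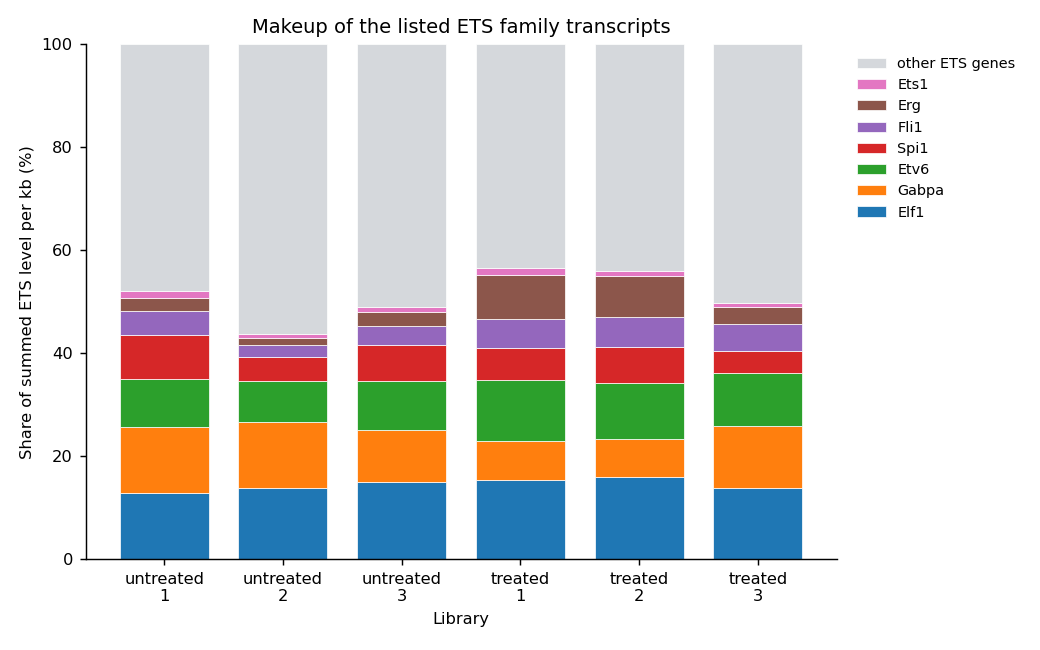
Share of the summed level per kilobase (percent) of 17 ETS genes in each library, with the 7 ETS genes described here in colour and the other 10 in grey. The *Erg* band is 8.51% and 8.02% in treated replicates 1 and 2, 3.31% in treated replicate 3 and at most 2.76% in the untreated libraries.

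FLI1 and the erythroid factor KLF1 are known to oppose each other between megakaryocyte and erythroid fates. The log2 ratio of *Fli1* to *Klf1* was -2.14, -2.10 and -3.32 in treated and -3.64, -5.02 and -3.86 in untreated libraries. The groups did not overlap, and the means differed by 1.65 (two-sided exact permutation p of 0.1, the smallest possible), and by 2.05 without treated replicate 3. *Klf1* itself did not pass with all libraries (log2 fold change -0.61, limma adjusted p 0.133) and did without treated replicate 3 (-0.83, limma adjusted p 0.0151). PU.1 and the erythroid and megakaryocyte factor GATA1 are a second opposed pair. The log2 ratio of *Spi1* to *Gata1* was -2.29, -2.03 and -3.58 in treated and -2.71, -3.94 and -3.07 in untreated libraries, which overlapped, with a difference of 0.60 and an exact permutation p of 0.4. The difference was 1.08 without treated replicate 3, 0.30 without treated replicate 2 and 0.26 without untreated replicate 2. Of 12 erythroid markers 1 fell, *Ermap*, and without treated replicate 3 limma called 7 lower (*Car1*, *Car2*, *Epor*, *Ermap*, *Gata1*, *Klf1*, *Tfrc*). The mean was higher in treated MEPs for 4 of the 12, among them the globin gene *Hbb-b1* and the heme synthesis gene *Alas2* (log2 fold changes 1.21 and 0.75, not past the threshold), and *Hbb-b1* was called higher without treated replicate 1. *Ermap* was not called when any other library was left out. Their summed level was 4761, 4570 and 8567 CPM in treated replicates 1, 2 and 3 and between 7296 and 7854 CPM in the untreated libraries, so that treated replicates 1 and 2 lay below the untreated range and treated replicate 3 above it.

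**Figure D4:**
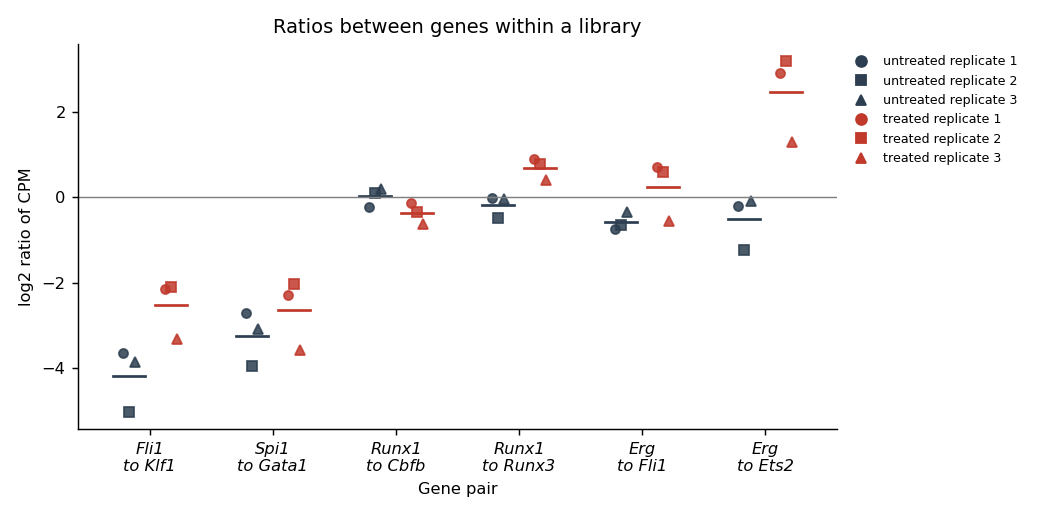
Log2 ratio of CPM between 2 genes of the same library for 6 gene pairs, with a point for each untreated (dark) and treated (red) library and a bar at each group's mean. The groups are apart for *Fli1* to *Klf1*, *Runx1* to *Runx3* and *Erg* to *Ets2*, and treated replicate 3 is the treated library nearest to the untreated ones in these 3 pairs; the last 3 pairs drawn were chosen after the values were seen.

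Genes linked to these factors were described in 6 further lists. Of 19 other ETS genes, 10 were listed, 1 rose and 1 fell. The gene that rose was *Etv5*, a factor downstream of growth factor signalling, at 29.5, 33.4 and 24.9 CPM in treated and 16.8, 13.6 and 18.5 CPM in untreated libraries (log2 fold change 0.84, adjusted p in limma 0.0420), and the gene that fell was *Ets2*. *Erf* and *Elk1*, with log2 fold changes of 0.40 and 0.78, did not pass with all libraries. The fit without treated replicate 3 gave 6 of the 10 called higher (*Elf4*, *Elk1*, *Elk3*, *Erf*, *Etv3*, *Etv5*), and leaving out any other library gave 0, so that *Etv5* was lost in each of those fits. The list's median was 0.31. Of 20 RUNX family and cofactor genes 19 were listed and 0 passed in limma or with voom weights, with a median of 0.13. At an unadjusted p under 0.05, 4 were higher and 1 lower in limma. When treated replicate 3 was left out, 5 were called higher (*Ash1l*, *Crebbp*, *Hipk2*, *Mll1*, *Tle2*), and voom weights with the replicate block called 1, *Tle2*. With all 6 libraries array quality weights called 6 higher (*Ash1l*, *Hipk2*, *Mll1*, *Tle1*, *Tle2*, *Tle4*), and a mean-variance trend 1, *Tle2*. The corepressor gene *Tle2* was at 24.6, 27.5 and 4.59 CPM in treated and 2.06, 1.29 and 3.68 CPM in untreated libraries, a log2 fold change of 2.77 with an adjusted p in limma of 0.0828, and 0.0127 without treated replicate 3.

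Of 18 partners of ETS factors 17 were listed and 1 passed the test, downward. It was *Irf8*, a partner of PU.1 in monocyte development, at 8.06, 5.25 and 5.42 CPM in treated and 44.9, 20.2 and 38.3 CPM in untreated libraries (log2 fold change -2.41, adjusted p in limma 0.0185). The list had 3 called higher and 4 lower without treated replicate 3, *Irf8* among them, and *Irf8* was lost when any other library but untreated replicate 2 was left out. For *Cebpa*, which drives granulocyte fate, the log2 fold change of -1.58 did not pass (limma adjusted p 0.0577). *Cebpa* was called lower with a pseudocount of 1 CPM, a filter of 5 CPM, a mean-variance trend, array quality weights and quantile normalization. Voom weights, alone or plus the replicate block, also called it lower, but not the fit without treated replicate 3. *Gata2* (log2 fold change 1.46, adjusted p in limma 0.0698) was called higher in all these fits except quantile normalization. Of 25 myeloid genes known to receive PU.1 input 22 were listed, and 7 passed, all of them downward, with a median of -1.06. The 7 were *Elane*, *Prtn3*, *Mpo* and *Ctsg*, which encode granule proteins, *Csf1r*, the receptor for macrophage colony-stimulating factor, and *Ncf1* and *Ncf4*, subunits of the phagocyte oxidase. *Elane* fell by 3.22 on the log2 scale and *Csf1r* by 1.45, while *Spi1* did not pass. When treated replicate 3 was left out, 9 were called lower and 3 higher (*Btk*, *Fcer1g*, *Ptprc*). Leaving out treated replicate 1 or 2 gave 1 called lower, untreated replicate 1 gave 2, untreated replicate 2 gave 4 and untreated replicate 3 gave 0. *Elane*, *Prtn3*, *Mpo*, *Ctsg* and *Csf1r* are also on the granulocyte-monocyte marker list, whose sums are given above.

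Of 22 megakaryocyte genes with ETS or RUNX input 15 were listed, 3 rose and 1 fell, with a median of 0.49. The rises were *Rab27b*, which acts in platelet granule release, by 1.18 on the log2 scale (adjusted p in limma 0.0245), and the platelet receptor subunits *Gp9* by 1.28 and *Gp1ba* by 0.90 (adjusted p in limma 0.0321 and 0.0486). *Vwf*, which encodes the ligand of that receptor, fell by 1.31 (adjusted p in limma 0.0181). *Gp1bb*, a further subunit of that receptor, had a log2 fold change of -1.32 that did not pass (adjusted p in limma 0.0958). Its means were 0.726 CPM in treated and 1.87 CPM in untreated MEPs. Without treated replicate 3 *Gp1bb* was called lower, at -1.58 (adjusted p in limma 0.0492). Of the 15 genes 6 had a lower mean in treated MEPs. With voom weights *Gp1ba* was not called, and with voom weights plus the replicate block *Gp9* was not. The largest log2 fold changes on the list did not pass in the fit used here: that of *F2rl2*, a thrombin receptor gene, was 3.06, and that of *Itga2b*, an integrin subunit of megakaryocytes, was 2.52. *Itga2b* was at 319, 314 and 66.9 CPM in treated and 37.5, 24.1 and 39.3 CPM in untreated libraries. With all 6 libraries *Itga2b* was called with a filter of 5 CPM or voom weights, and both were called with a pseudocount of 1 CPM, a mean-variance trend or array quality weights. Both passed without treated replicate 3, *Itga2b* at 3.27 (adjusted p in limma 0.00515), and the list had 6 called higher and 2 lower. Leaving out treated replicate 1 or 2 or untreated replicate 1 or 2 gave 0 called higher, and untreated replicate 3 gave 1, *Gp9*. *Vwf* was lost without treated replicate 2, untreated replicate 1 or untreated replicate 3. Of 14 regulators and effectors of ETS signalling 1 rose and 2 fell, with a median of -0.02. *Dusp4*, a MAP kinase phosphatase, rose by 1.69, and the signalling inhibitors *Spry4* and *Spry1* fell by 2.83 and 1.98. *Spry2*, of the same family, was at 39.2, 43.1 and 8.70 CPM in treated and 8.51, 7.43 and 11.6 CPM in untreated libraries, a log2 fold change of 1.44 that did not pass (adjusted p in limma 0.197), and 2.19 without treated replicate 3 (adjusted p 0.00754 in limma). Without that library the list had 3 called higher and 2 lower, and leaving out any other library gave at most 1 call. A filter of 5 CPM leaves *Dusp4*, *Spry4* and *Spry1* untested, and voom weights gave 2 called lower and 0 higher. Of 10 mast cell markers 6 were listed, without *Fcer1a*, *Tpsb2*, *Cma1* and *Hdc*. Of the 6 listed, 3 rose, *Cpa3*, *Ms4a2* and *Slc18a2*, and 3 had a lower mean in treated MEPs. Without treated replicate 3 the same 3 were called higher and 1 lower, *Gzmb*, which was also called lower with voom weights. Without any other library 1 was called, *Cpa3*. The summed level of the 6 was between 426 and 474 CPM in treated and between 353 and 528 CPM in untreated libraries.

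**Figure D5:**
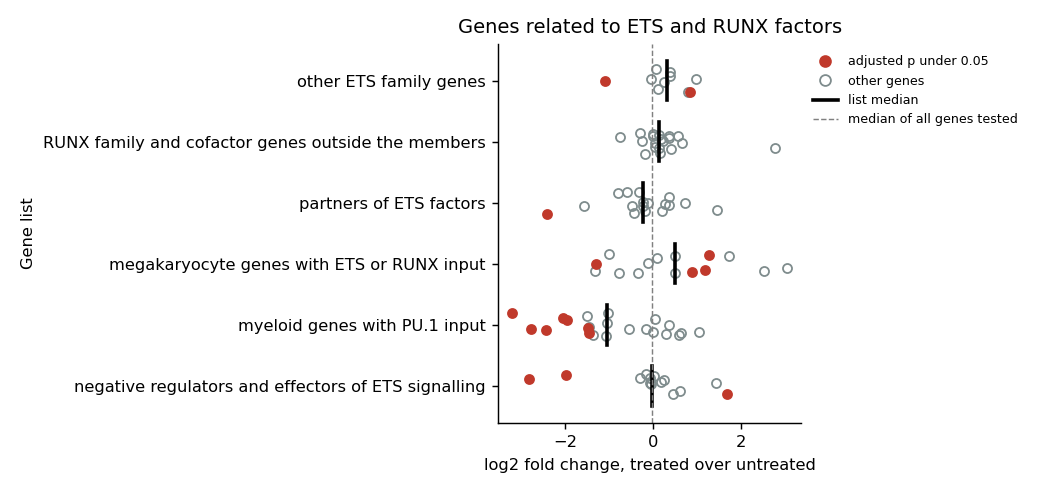
Log2 fold change, treated over untreated, of each tested gene in 6 lists related to ETS and RUNX factors, with genes past the threshold filled in red, a black bar at each list's median and a dashed line at the median of all genes tested (-0.03). The myeloid list has 7 filled points, all below 0, and the RUNX list has none.

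Genes with the most similar profile were taken by Pearson correlation of log2 values over the 6 libraries, which share treatment and depth, so the values are a description. For *Fli1* they were *Fbxo32* (r = 0.999), *Slc35f5* and *Brdt*, for *Runx1* 9830147E19Rik (r = 0.998), *Trafd1* and *Tbc1d16*, and for *Spi1* *Prkci* (r = 0.998), *Cpxm1* and *Dennd2d*.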

How the data were processed

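RNA libraries of sorted MEPs, 3 treated and 3 untreated, were compared. The authors trimmed adapters with Cutadapt, quantified reads with RSEM on NCBIM37 Ensembl transcripts and used limma for normalization. The deposited values are log2 CPM with 0.5 reads added. The normalization method, low-value filter and use of strand are not given in the sources used here. Each library held between 11264803 and 16153600 recovered reads.

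Treated and untreated values were compared with limma 3.58.1 (lmFit and eBayes, R 4.3.3) on the 12088 genes that reached 1 CPM in 3 or more libraries, without a block, with Benjamini–Hochberg adjustment over all of them (threshold 0.05). Single ratios and shares had a two-sided exact permutation test. The fit was tested on simulated data. Levels between genes were compared per kilobase of the longest NCBIM37 transcript.

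The members and gene lists were chosen with earlier results of these data known. From each list up to 4 genes with the smallest p-values could be named; further genes that passed in a fit, *Elf2*, *Hbb-b1*, *Alas2*, *Itga2b*, *F2rl2* and *Spry2* were named after their values were seen. In the RUNX cofactor list, 2 entries were corrected to annotation symbols after values were seen: a duplicate name of *Mll1* was removed, and *Myst3* was matched by its older symbol. Alternatives changed the pseudocount, filter, variance model, weights, scaling and block, and left out each library in turn.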

Additional observations from a re-analysis of the deposited data

How the results depend on the processing

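Leaving out 1 library at a time gave between 0 and 3 of the 10 genes called higher and between 0 and 1 called lower. The counts of genes in the related lists then ranged from 0 to 26 higher and from 0 to 18 lower, against 5 and 12 with all libraries. The highest counts came without treated replicate 3. Over all genes tested, that fit called 1801 higher and 1687 lower. Leaving out any other library called between 92 and 143 of all genes tested higher and between 36 and 126 lower. A mean-variance trend gave 2 of the 10 genes called higher (*Erg*, *Cbfb*), array quality weights gave 5 (*Erg*, *Cbfb*, *Fli1*, *Etv6*, *Elf1*), voom precision weights gave 1 (*Cbfb*), and an adjusted p under 0.1 as the threshold gave 2 (*Erg*, *Cbfb*). In the related lists the genes called higher numbered 10 with a pseudocount of 1 CPM, 8 with a filter of 5 CPM, 13 with the trend, 29 with array quality weights, 8 with quantile normalization and 10 with voom, and the genes called lower numbered 28 with array quality weights. Calls over all genes tested moved with these settings, from 555 higher and 384 lower in the reported fit to 749 and 496 with the pseudocount, 683 and 462 with the filter, 909 and 747 with the trend, 2515 and 2601 with array quality weights, 648 and 537 with quantile normalization, and 615 and 570 with voom. The labels number the replicates 1 to 3 in both groups. Deviations from the group means had correlations between -0.30 and 0.02 for same-numbered libraries and between -0.20 and 0.24 for the others. With 3 libraries per group these values cannot show or exclude a pairing. With the replicate block in limma, 0 members were called higher and 0 lower (*Runx3*, adjusted p 0.158), and the related lists held 0 genes called higher and 1 lower, with 53 higher and 29 lower of all genes tested. The granulocyte-monocyte marker list held 2 called lower in that fit (*Cebpe*, *Ly6c2*), and the other marker lists held 0. With voom weights and the replicate block, 2 members (*Erg*, *Cbfb*) and 8 list genes were called higher. In the same fit 1 member (*Runx3*, adjusted p in limma 0.0461) and 15 list genes were called lower. Of all genes tested, that fit called 575 higher and 351 lower. The log2 fold change of *Spi1* was -0.03 without treated replicate 2 and -0.13 without untreated replicate 2, and reached 0.50. That of *Ets1* was -0.15 without treated replicate 1 and reached 0.65. The cause of these changes was not tested. The *Runx3* call was kept in 10 of 16 alternatives. Over the alternatives run, the 3 planned ratios kept their sign.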
